A study of Mus musculus with 7 samples.

Results

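The locus described here is the stretch of 90 kb on mouse chromosome 17 that starts at base 8380001 on build mm9. It holds the gene Ccr6 and its upstream side. It is 1 gene among all genes of the genome, and it was divided into 450 windows of 200 bp, of 13194729 in the genome, and into 90 bins of 1 kb, of 2638987. The locus was chosen with the reads of stimulated Th17 cells in view, so the values of stimulated Th17 cells against the other libraries chose it, are given as a description, and support nothing by themselves.

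BRG1 spends ATP to move nucleosomes, as the motor subunit of the SWI/SNF complex. Its binding was measured by chromatin immunoprecipitation and sequencing (ChIP-seq) with the antibody J1, after crosslinking with formaldehyde and treatment with MNase, in CD4+ T helper cells of Balb/C mice, in 1 library for each group. Stimulated Th17, stimulated Th1 and stimulated Th2 cells were given PMA (50 ng/ml) together with ionomycin (500 ng/ml) for 1.5 h, a pair of drugs that acts in place of a signal through the T cell receptor. Resting Th1 and resting Th2 cells were cultured in the same way as their stimulated counterparts and did not receive these agents, naive cells were CD4+CD62L+ cells taken from spleen and lymph nodes at 95% purity, and the input was DNA of pooled CD4+ T helper cells without immunoprecipitation. All effector cells were differentiated in 1 round of culture from naive cells of mice aged 4 to 6 weeks. Th17 cells were cultured with soluble anti-CD3 (4 μg/ml) and anti-CD28 (1 μg/ml), also soluble. Their medium held TGF-β (1 ng/ml), IL-1β (10 ng/ml) and IL-6 (100 ng/ml), with anti-IFNγ and anti-IL-4 (10 μg/ml each), and from day 3 they were expanded with IL-23 (10 ng/ml). Th1 cells were cultured on plates coated with anti-CD3 at 1 μg/ml and anti-CD28 at 2 μg/ml, with IL-12 at 1 ng/ml and anti-IL-4 at 10 μg/ml. Th2 cells had the same coated plates with IL-4 at 10 ng/ml and anti-IFNγ at 10 μg/ml, and both Th1 and Th2 cultures received IL-2 at 100 U/ml. No library of resting Th17 cells was analysed here, so the effects of Th17 differentiation and of stimulation cannot be told apart at this locus. The soluble antibodies and the cytokines of the Th17 culture likewise cannot be told apart from the Th17 state.

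Ccr6 encodes a G protein-coupled chemokine receptor whose ligand is CCL20. Th17 cells are known to carry it, and it guides them to mucosal and inflamed tissue where CCL20 is made. In Th17 cells its expression is known to depend on RORγt, the lineage-defining nuclear receptor of these cells. In the RefSeq order of protein-coding genes on build GRCm38, Ccr6 lies on the plus strand between Cep43, which encodes a centrosomal protein, and Mpc1, which encodes a subunit of the mitochondrial pyruvate carrier, so its upstream side is the side of lower coordinates. The gene spans 22.5 kb in that build. No gene model of build mm9 was used here, so the reads below are placed by mm9 coordinates only and are not assigned to exons, introns or the promoter, and the labelled cell types were not checked against marker genes.

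RefSeq gives 2 promoters of Ccr6, shown here because the high reads described below cover a stretch that holds the gene. Each is 250 bases before to 50 bases after a transcript start on GRCm38.p6, plus strand, at chr17:8235793-8236092 and chr17:8242276-8242575, and they lie 6483 bp apart. These positions belong to another build than the reads, so no read count is attached to either sequence. Capitals mark matches on either strand to the nuclear receptor half-site AGGTCA, the core that RORγt and other nuclear receptors bind, and no match to the AP-1 site TGANTCA was there to mark.
Ccr6 promoter 1: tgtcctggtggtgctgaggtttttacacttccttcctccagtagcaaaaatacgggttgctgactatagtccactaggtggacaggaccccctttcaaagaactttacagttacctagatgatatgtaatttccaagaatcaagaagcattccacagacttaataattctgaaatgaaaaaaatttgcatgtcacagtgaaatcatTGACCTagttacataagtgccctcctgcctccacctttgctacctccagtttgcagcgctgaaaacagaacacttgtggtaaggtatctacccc
Ccr6 promoter 2: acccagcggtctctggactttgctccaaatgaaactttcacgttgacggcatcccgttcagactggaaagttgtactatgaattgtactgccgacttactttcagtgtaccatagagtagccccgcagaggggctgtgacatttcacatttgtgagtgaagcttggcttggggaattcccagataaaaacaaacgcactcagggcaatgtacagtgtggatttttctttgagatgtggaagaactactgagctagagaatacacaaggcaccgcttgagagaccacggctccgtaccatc

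The first promoter holds 1 half-site, on the minus strand, and the second holds 0. Of 32851 RefSeq promoters of 300 bases, 16.3% hold AGGTCA and 7.81% hold TGANTCA on either strand. The NFAT core GGAAA was found once in each Ccr6 promoter and in 61.3% of all promoters, and the E-box CANNTG was found 1 time in the first and 2 times in the second, against 72.3% of all promoters with at least 1. GC content was 42.3% in the first and 47.7% in the second promoter, against a median of 52.7%. These matches describe letters in these windows and not binding.

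Over the whole locus, stimulated Th17 cells had 3.98 to 5.84 times the BRG1 read level of the other BRG1 libraries. Reads that shared a start and strand were counted once, and counts were divided by the distinct reads of the library to give reads per 1000000 (RPM). The locus held 1554 distinct reads in stimulated Th17, which is 197 RPM (187 to 207). It held 194 reads in stimulated Th1, 49.5 RPM (42.8 to 57.0), and 194 in stimulated Th2, 45.5 RPM (39.3 to 52.4). Resting Th1 had 61 reads, 33.7 RPM (25.8 to 43.3), resting Th2 had 47, 35.1 RPM (25.8 to 46.6), naive had 98, 47.3 RPM (38.4 to 57.6), and input had 128, 36.2 RPM (30.2 to 43.1). Stimulated Th17 stood alone at the high end, and the other BRG1 libraries lay at 0.931 to 1.37 times the input. Of these, the ratio over input had an interval above 1 in stimulated Th1 (1.37, 1.09 to 1.72). A ratio of 1 was not the middle of the genome. In tiles of 90 kb, described below, the median ratio over input was 0.592 in stimulated Th1 and 0.615 in stimulated Th2. The tile median was 0.895 in resting Th1, 0.788 in resting Th2 and 0.985 in naive. All intervals are 95% exact intervals and cover counting error only: reads amplified by PCR carry no molecular identifiers here and need not be independent. Each group has 1 library, so no p-value is printed, and a ratio sets a library against a library rather than a condition against a condition. A higher level in the bulk of the cells and a high level in part of the cells cannot be told apart.

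**Figure D1:**
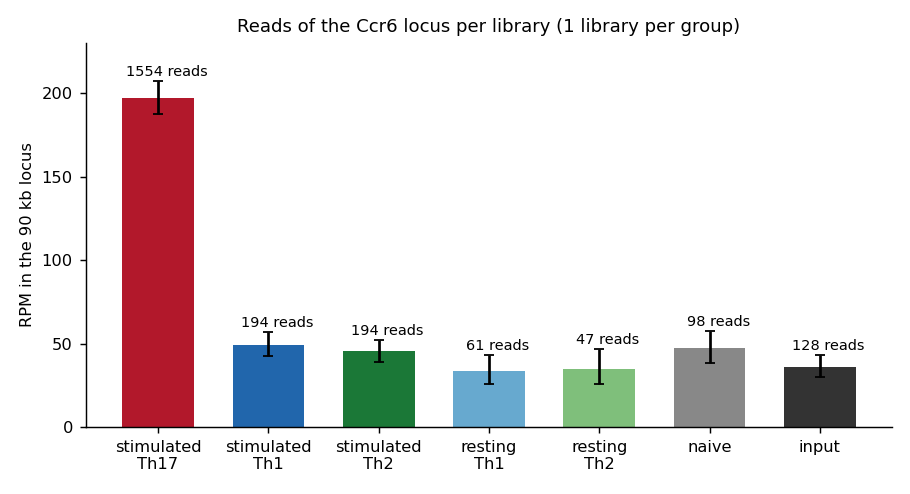
RPM of distinct reads in the 90 kb Ccr6 locus for each of the 7 libraries; bars start at 0, error lines are 95% exact Poisson intervals of the count, and the number of reads is printed above each bar. The stimulated Th17 library has 197 RPM and the other libraries 33.7 to 49.5 RPM.

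The RPM ratio of stimulated Th17 was 3.98 over stimulated Th1 (3.42 to 4.64), 4.33 over stimulated Th2 (3.72 to 5.05), 5.84 over resting Th1 (4.52 to 7.67), 5.61 over resting Th2 (4.20 to 7.67), 4.16 over naive (3.39 to 5.16) and 5.43 over input (4.53 to 6.56). These ratios depend on the choice of scale. Across the 26371 regions called in any BRG1 library, the median ratio of stimulated Th17 was 0.579 over stimulated Th1 and 0.627 over stimulated Th2, shifts of -0.79 and -0.67 on the log2 scale. Relative to those medians, the locus was 6.87-fold higher than in stimulated Th1 and 6.90-fold higher than in stimulated Th2. Relative to the ratios in 10 kb bins without called regions, it was 3.68-fold and 4.10-fold higher. The regions called at equal depth numbered 6081 in stimulated Th17, 11412 in stimulated Th1 and 10881 in stimulated Th2. Whether these numbers lower the medians was not tested. At equal depth, with every BRG1 library thinned to 1340208 distinct reads, the locus held 243 reads in stimulated Th17, 58 in stimulated Th1 and 51 in stimulated Th2, with 45 in resting Th1, 47 in resting Th2 and 57 in naive. Stimulated Th17 was the highest at equal depth as well.

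Below stimulated Th17, the libraries followed in the order stimulated Th1, naive, stimulated Th2, input, resting Th2 and resting Th1, and no neighbouring pair in that order differed beyond counting error. The ratio was 1.05 for stimulated Th1 over naive (0.817 to 1.35), 0.962 for stimulated Th2 over naive (0.751 to 1.24), 1.26 for stimulated Th2 over input (1.00 to 1.58), 0.968 for resting Th2 over input (0.677 to 1.36) and 0.962 for resting Th1 over resting Th2 (0.647 to 1.44). These comparisons leave out stimulated Th17. The stimulated library was 1.47-fold of the resting library in Th1 (1.10 to 1.99) and 1.30-fold in Th2 (0.940 to 1.83). The interval, which covers counting error only, left out 1 in Th1 and included it in Th2, and the difference between these ratios was not tested. The median 90 kb tile of the genome had a stimulated over resting ratio of 0.737 in Th1 and 0.877 in Th2. Stimulated Th1 was 1.09-fold of stimulated Th2 (0.887 to 1.33). Resting Th1 was 0.713-fold of naive (0.509 to 0.992) and resting Th2 0.741-fold of naive (0.512 to 1.06). Reads that repeated a position made up 11.6% of the locus reads in stimulated Th17, 5.37% in stimulated Th1 and 4.43% in stimulated Th2, with 30.7% in resting Th1, 27.7% in resting Th2, 41.0% in naive and 6.57% in input.

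The stimulated Th17 reads were spread over most of the locus rather than held by a few positions, but unevenly, as described below. A stretch of 7.2 kb, 8408801 to 8416000, had no read in any of the 7 libraries, input included. It was kept in the locus totals, while its empty windows and bins were left out of the window shares and bin medians below. Whether BRG1 was bound there cannot be read from these files. Outside empty windows, 85.5% of the 379 windows of 200 bp held a stimulated Th17 read, against 35.4% in stimulated Th1 and 36.7% in stimulated Th2, with 14.8% in resting Th1, 11.6% in resting Th2, 21.1% in naive and 27.4% in input. These shares rise with the depth of a library. The fullest window held 34 reads in stimulated Th17, 7 in stimulated Th1 and 8 in stimulated Th2, and 3 in each of the other libraries. The reads fell evenly on both strands, with 765 on the plus and 789 on the minus strand in stimulated Th17, and no single position had more than 7 copies before repeated reads were removed.

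**Figure D2:**
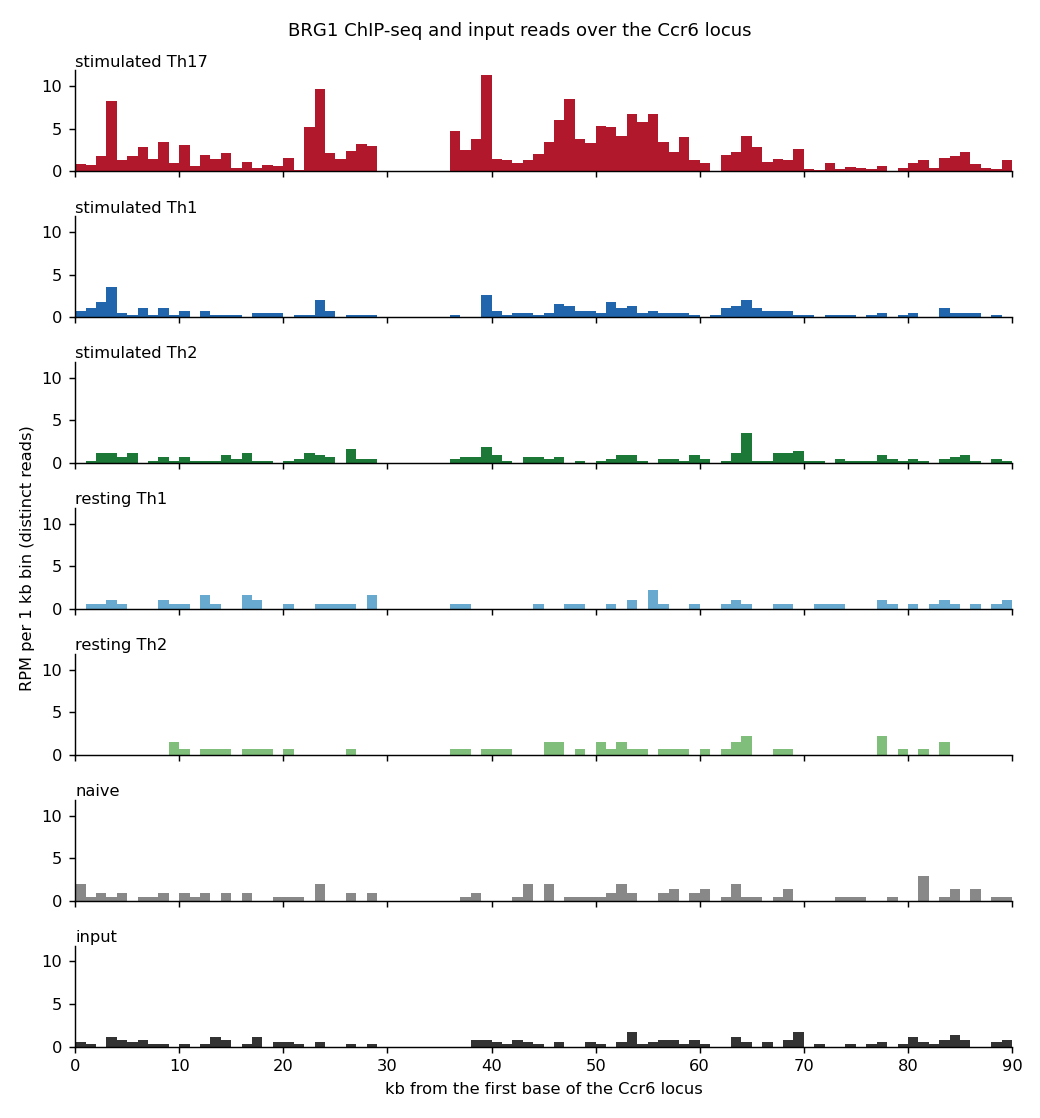
RPM of distinct reads in each 1 kb bin across the 90 kb Ccr6 locus, 1 panel per library on the same vertical axis; the horizontal axis is the distance in kb from the first base of the locus. Stimulated Th17 reaches 11.3 RPM in its highest bin and no other library passes 3.57 RPM, and the gap of 7.2 kb is empty in all panels.

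In bins of 1 kb, stimulated Th17 had at least 10 reads in 54 of the 90 bins, against 6.2% of all bins of the genome. The median over the 83 bins that held a read in any library was 12 reads in stimulated Th17, 2 in stimulated Th1 and 2 in stimulated Th2, with 1 in resting Th1, 0 in resting Th2, 1 in naive and 1 in input. These counts depend on depth. In RPM the medians were 1.52 in stimulated Th17, 0.511 in stimulated Th1 and 0.469 in stimulated Th2. They were 0.553 in resting Th1, 0 in resting Th2, 0.483 in naive and 0.283 in input. The highest bin, 8419001 to 8420000, held 89 reads in stimulated Th17, against 10 in stimulated Th1 and 8 in stimulated Th2, with 0 in resting Th1, 1 in resting Th2, 0 in naive and 3 in input. The second, 8403001 to 8404000, held 76 reads in stimulated Th17, against 8 in stimulated Th1 and 4 in stimulated Th2, with 1 in resting Th1, 0 in resting Th2, 4 in naive and 2 in input. The third, 8427001 to 8428000, held 67 reads in stimulated Th17, against 5 in stimulated Th1 and 0 in stimulated Th2, with 1 in resting Th1, 0 in resting Th2, 1 in naive and 0 in input. In each of these bins stimulated Th17 lay above every other library. They were picked for their stimulated Th17 reads, so nothing is read from that. The fourth bin, 8383001 to 8384000 near the low-coordinate edge, was also the highest of stimulated Th1, with 65 reads in stimulated Th17, 14 in stimulated Th1, 5 in stimulated Th2 and 0 to 4 in the others. Of the 10 bins with the most stimulated Th17 reads, which together held 579 reads, 6 lay between 8426001 and 8436000.

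A bin was called higher where the RPM ratio was at least 3-fold, its interval left out 1 and the pair held at least 10 reads. Against stimulated Th1, 33 of the 59 tested bins of the locus were called higher in stimulated Th17, and 6.96% of the tested bins of the genome were. Against stimulated Th2 the count was 30 of 58, and 7.11% in the genome. In 24 of 56 bins tested in both comparisons the call was made against both, and 2.56% in the genome. No bin of the locus was called lower in stimulated Th17 in either comparison, against 3.14% of the tested bins of the genome for stimulated Th1 and 4.41% for stimulated Th2. Higher calls were made in 26 of 55 bins over resting Th1 (8.72% in the genome), 15 of 56 over resting Th2 (4.55%) and 21 of 58 over naive (13.5%). The other 31 bins of the locus in the comparison with stimulated Th1 had fewer than 10 reads in the pair, and 7 of them were empty everywhere. The locus was chosen on these contrasts and bins reached the minimum mostly through stimulated Th17, so nothing is read from these counts.

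The longest unbroken run of bins with at least 10 stimulated Th17 reads had 17 bins, 8423001 to 8440000. It held 578 reads in stimulated Th17, 73.2 RPM, against 52 in stimulated Th1, 13.3 RPM, and 33 in stimulated Th2, 7.74 RPM. Resting Th1 had 12 reads there, 6.64 RPM, resting Th2 had 15, 11.2 RPM, naive had 27, 13.0 RPM, and input had 29, 8.21 RPM. The ratio of stimulated Th17 was 5.52 over stimulated Th1 (4.15 to 7.48) and 9.46 over stimulated Th2 (6.66 to 13.9). The run was picked on its stimulated Th17 reads, which raises these ratios, so nothing is read from them. Long runs were not particular to the locus: 389 runs in the genome, this one included, had at least 17 bins, and the longest had 77.

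At equal depth, 7 windows of the locus were called in stimulated Th17 and 0 in each of the other 5 BRG1 libraries. A window was called within a library where a Poisson count as high as its own had a chance below 1e-05, given the genome mean or the nearby input density, whichever was larger. In the genome, 0.0504% of windows were called in stimulated Th17, 0.106% in stimulated Th1 and 0.0946% in stimulated Th2, with 0.0603% in resting Th1, 0.0737% in resting Th2 and 0.0256% in naive. The 7 windows formed 5 regions. With all distinct reads, 62 windows were called in stimulated Th17, where 0.498% were called in the genome, 1 in stimulated Th1 (0.332%) and 2 in stimulated Th2 (0.341%), and 0 in resting Th1 (0.0828%), resting Th2 (0.0737%) and naive (0.046%).

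The 5 regions called at equal depth are given with all distinct reads. The leading region, 8427401 to 8428000, held 58 reads in stimulated Th17, against 4 in stimulated Th1 and 0 in stimulated Th2, with 1 in resting Th1, 0 in resting Th2, 1 in naive and 0 in input. Its RPM ratio was 7.20 over stimulated Th1 (2.66 to 27.3). Over stimulated Th2, with a floor of 3 counts put in place of the count of 0, its ratio was 10.4, and the exact lower bound was 8.22. The region 8434601 to 8434800 held 23 reads in stimulated Th17 and 0 in each of the other 6 libraries, input included. With the same floor, its ratio was 3.81 over stimulated Th1, where the exact lower bound was 2.85. Over stimulated Th2 its ratio with that floor was 4.14, with 3.10 as the exact lower bound. Among the 5 regions it was the one where no other library had a read.

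The region 8419801 to 8420000 was less distinct, with 21 reads in stimulated Th17, against 5 in stimulated Th1, 2 in stimulated Th2, 2 in input and 0 in resting Th1, resting Th2 and naive. Its ratio was 2.08 over stimulated Th1 (0.765 to 7.08), an interval that includes 1, and 5.67 over stimulated Th2 (1.39 to 49.9). The region 8383001 to 8383200 held 15 reads in stimulated Th17, against 1 in stimulated Th1, 2 in stimulated Th2, 1 in input and 0 in the unstimulated libraries. The region 8416401 to 8416600, which begins 400 bp after the empty stretch, held 12 reads in stimulated Th17, against 0 in stimulated Th1 and 1 in stimulated Th2, with 1 in resting Th1 and 0 in resting Th2, naive and input. Under the 3-fold rule, 4 of the 5 regions were called higher in stimulated Th17 than in stimulated Th1, where 3.58% of 22557 tested regions of the genome were, and 3 of 5 were called higher than in stimulated Th2, where 3.54% of 23254 were. Over the unstimulated libraries the calls were 3 of 5 against resting Th1 (13.4% in the genome), 1 of 5 against resting Th2 (7.84%) and 3 of 5 against naive (23.7%). When counted at equal depth, 1 of the 5 regions held at least 10 reads in the pair in each of the comparisons with stimulated Th1 and stimulated Th2, and it was called. At equal depth all 5 regions were called in stimulated Th17 and in no other library, while the share for the genome is over regions called in any BRG1 library, so nothing is read from these counts.

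With all distinct reads, stimulated Th17 had 29 regions in the locus, 200 to 1200 bp long with a median of 400 bp, which covered 13800 bp. They held 8 to 96 reads in stimulated Th17, with a median of 21, against 0 to 12 in stimulated Th1, 0 to 15 in stimulated Th2, 0 to 4 in resting Th1, 0 to 2 in resting Th2, 0 to 4 in naive and 0 to 3 in input. The fullest, 8402801 to 8404000, held 96 reads in stimulated Th17, against 9 in stimulated Th1 and 5 in stimulated Th2, with 1 in resting Th1, 0 in resting Th2, 4 in naive and 2 in input. The region 8434601 to 8435600 held 76 reads in stimulated Th17, against 1 in stimulated Th1 and 0 in stimulated Th2, with 4 in resting Th1, 0 in resting Th2, 0 in naive and 1 in input. In 26 of the 29 regions the median 5′ end of the minus-strand reads lay at a higher coordinate than that of the plus-strand reads. The median distance was 126 bp over all 29. Reads were assigned to regions after a shift of 75 bp in the 3′ direction. That shift by itself places minus-strand 5′ ends at higher coordinates than plus-strand ends, so nothing is read from this order.

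The difference between libraries was also present between the called regions. The 29 regions held 52.9% of the stimulated Th17 reads of the locus, 822 of 1554, and 732 reads lay outside them. They made up 18.2% of the windows that held a read in any library. Outside the regions the ratio of stimulated Th17 was 3.13 over stimulated Th1 (2.57 to 3.84), 2.76 over stimulated Th2 (2.31 to 3.33) and 3.03 over input (2.48 to 3.75). Inside them it was 5.23 over stimulated Th1 (4.14 to 6.69), 8.70 over stimulated Th2 (6.56 to 11.8) and 18.4 over input (11.8 to 30.3). The regions were called on the stimulated Th17 reads, so the inside values are raised by that choice and the outside values lowered.

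Stimulated Th1 and stimulated Th2 each had 1 called region in the locus with all distinct reads. In neither did stimulated Th17 stand above the library in which it was called. Both sites were also called in stimulated Th17 with all distinct reads. They lay within its regions 8383601 to 8384000, with 37 stimulated Th17 reads, and 8444401 to 8445000, with 33. The stimulated Th1 region, 8383801 to 8384000, held 14 reads in stimulated Th17, 7 in stimulated Th1 and 2 in stimulated Th2, with 1 in resting Th1, 0 in resting Th2, 0 in naive and 2 in input, and the ratio of stimulated Th17 over stimulated Th1 was 0.993 (0.375 to 2.91). The stimulated Th2 region, 8444601 to 8445000, held 25 reads in stimulated Th17, 7 in stimulated Th1 and 14 in stimulated Th2, with 0 in resting Th1, 2 in resting Th2, 0 in naive and 1 in input, and the ratio of stimulated Th17 over stimulated Th2 was 0.964 (0.482 to 2.01). In RPM the stimulated Th17 library thus had 3.17 and stimulated Th2 3.28 at this site. These regions were called on the reads of the libraries they are compared with, which raises those libraries' counts. Among bins tested between libraries other than stimulated Th17, 1 of 6 was called higher in stimulated Th1 than in stimulated Th2, with 2.02% called in the genome. It was the bin 8383001 to 8384000, where stimulated Th1 had 14 reads and stimulated Th2 had 5, and the ratio was 3.05 (1.04 to 10.8). Between stimulated and resting Th1, 1 of 2 tested bins was called, with 16.7% in the genome: 8419001 to 8420000, where stimulated Th1 had 10 reads and resting Th1 had 0. Between stimulated and resting Th2, 0 of 1 was called, with 8.29% in the genome.

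**Figure D3:**
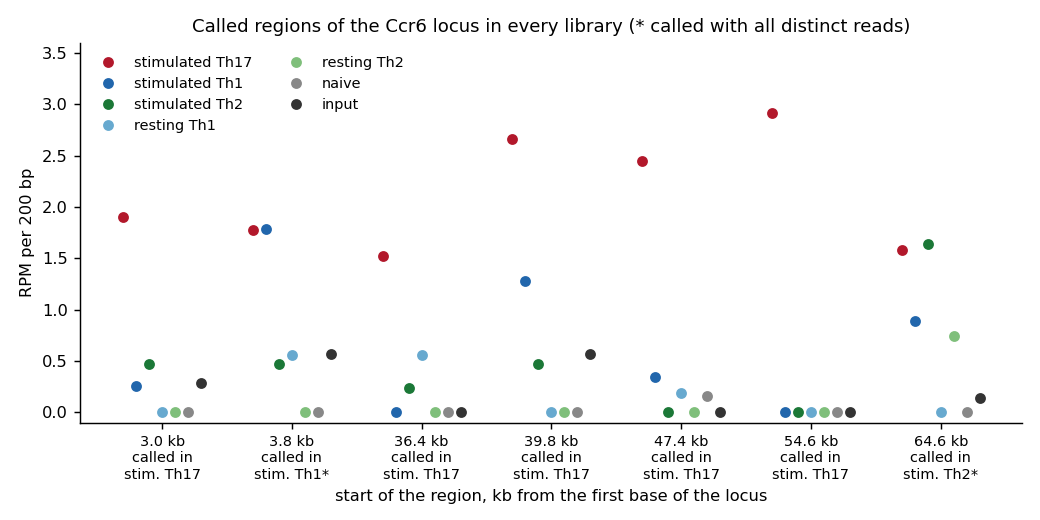
RPM per 200 bp in each library for the 5 regions called in stimulated Th17 at equal depth and for the regions called in stimulated Th1 and stimulated Th2 with all distinct reads (marked with an asterisk), placed by their start in kb from the first base of the locus; each point is 1 library. Stimulated Th17 is highest in the 5 regions called in it at equal depth, and lies beside stimulated Th1 and stimulated Th2 in the regions called in those libraries. With all distinct reads, the regions marked with an asterisk lie within regions called in stimulated Th17 as well.

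In blocks of 10 kb, the excess of stimulated Th17 was largest inside the locus. It was present against both other stimulated libraries, with intervals above 1, in the 7 blocks from 8380001 to 8450000. The ratio over stimulated Th1 was highest, 7.94 (4.33 to 16.2), in the block from 8410001 to 8420000, and the ratio over stimulated Th2 was highest, 9.13 (5.88 to 14.9), in the block from 8430001 to 8440000. That block held 355 reads in stimulated Th17, the most of the locus, against 30 in stimulated Th1 and 21 in stimulated Th2, with 9 in resting Th1, 10 in resting Th2, 16 in naive and 22 in input. In the block from 8450001 to 8460000 the counts were 30 in stimulated Th17, 8 in stimulated Th1 and 14 in stimulated Th2, and the ratios were 1.86 (0.834 to 4.70) and 1.16 (0.595 to 2.36). The last block of the locus again had more reads in stimulated Th17, 87 against 13 in stimulated Th1 and 16 in stimulated Th2, but its ratio over input was 1.69 (1.06 to 2.81).

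The flanks differed from the locus. Over the 100 kb before it, the ratio of stimulated Th17 was 0.851 over stimulated Th1 (0.692 to 1.05) and 1.21 over stimulated Th2 (0.969 to 1.53). Over the 100 kb after it, the ratio was 1.27 over stimulated Th1 (1.13 to 1.43) and 1.36 over stimulated Th2 (1.21 to 1.53). The block that follows the locus directly, 8470001 to 8480000, was high in all libraries. It had 27.0 RPM in stimulated Th17, 27.3 in stimulated Th1 and 25.6 in stimulated Th2, with 22.7 in resting Th1, 23.9 in resting Th2, 21.7 in naive and 14.4 in input. The ratio of stimulated Th17 there was 0.988 over stimulated Th1 (0.780 to 1.26) and 1.06 over stimulated Th2 (0.834 to 1.34). A block with reads in every library thus lay beside a stretch where stimulated Th17 was higher than the other libraries. Farther out, blocks with and without an excess of stimulated Th17 alternated. The block 8490001 to 8500000 held 121 reads in stimulated Th17, with ratios of 1.94 over stimulated Th1 (1.30 to 2.98), 2.33 over stimulated Th2 (1.54 to 3.66) and 2.58 over input (1.61 to 4.32). The block that follows it, 8500001 to 8510000, was lower in stimulated Th17, with ratios of 0.626 over stimulated Th1 (0.451 to 0.871) and 0.691 over stimulated Th2 (0.497 to 0.963). The blocks that start at 8520001 and 8540001 had 42 and 61 reads in stimulated Th17 and ratios over stimulated Th1, stimulated Th2 and input of 2.08 to 2.52, all with intervals above 1. The block 8550001 to 8560000 had ratios of 2.78 over stimulated Th1 (1.59 to 5.19) and 4.54 over stimulated Th2 (2.35 to 9.80), and over input 1.39 (0.893 to 2.23). At the far end, the block 8560001 to 8570000 had 29.4 RPM in stimulated Th17, 14.0 in stimulated Th1 and 18.3 in stimulated Th2, with ratios of 2.09 (1.55 to 2.86) and 1.61 (1.24 to 2.10).

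**Figure D4:**
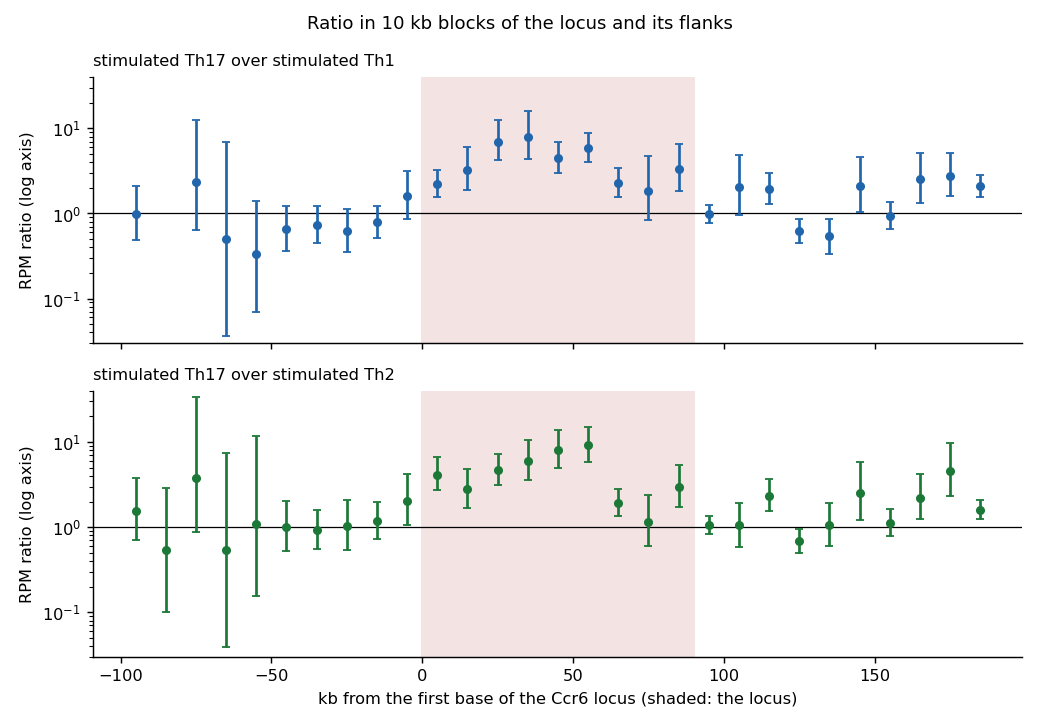
RPM ratio of stimulated Th17 over stimulated Th1 (top) and over stimulated Th2 (bottom) in blocks of 10 kb, on a log axis, with 95% exact intervals; the horizontal axis is the distance in kb from the first base of the locus, the locus is shaded, and a block with 0 reads in the lower library is left out. The ratios reach 7.94 and 9.13 inside the locus and lie near 1 in the block that follows it.

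Set against the genome cut into tiles of 90 kb, the locus lay at the upper end. Tiles were kept where the pair held at least 50 reads and the input at least 10, and tiles that overlap the locus were left out. The median tile ratio of stimulated Th17 over stimulated Th1 was 0.893 among 27528 tiles, the 99th percentile was 2.00, and 3 tiles were above the locus, at 4.03 to 4.70. Over stimulated Th2 the median was 0.870 among 27577 tiles, the 99th percentile was 2.00, and 3 tiles were above the locus, at 4.38 to 4.77. The number of tiles above the locus in both comparisons was 0. Over input, 0 of 27724 tiles were above the locus ratio of 5.43, and the highest had 5.40. The locus was less extreme by level: 265 tiles had more than its 197 RPM in stimulated Th17, 0.963% of them. The locus was chosen with these reads in view, so its rank is a description. In comparisons that leave out stimulated Th17 the locus lay lower in the range. Over input, 14.0% of tiles had a higher ratio in stimulated Th1 and 17.2% in stimulated Th2. The share over input was 44.8% in resting Th1, 31.4% in resting Th2 and 15.4% in naive. For stimulated over resting, 10.0% of tiles had a higher ratio in Th1 and 14.8% in Th2.

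**Figure D5:**
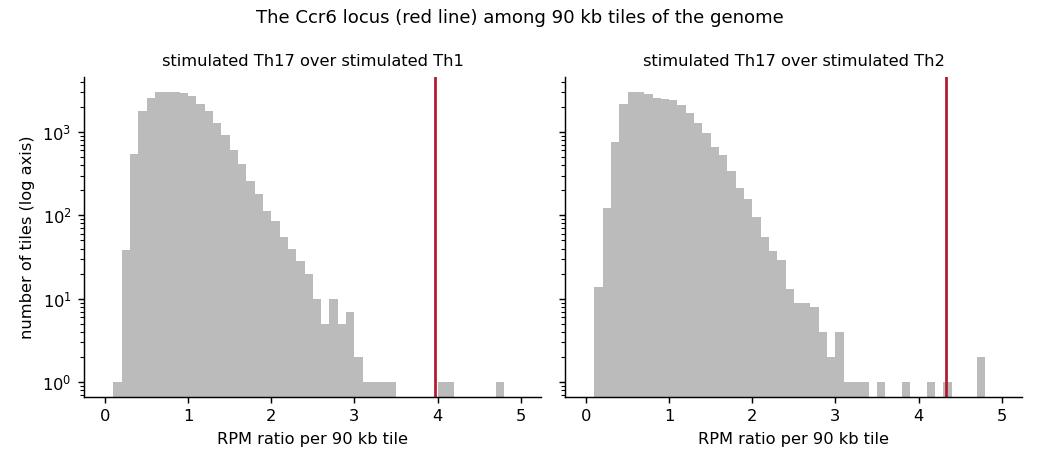
Number of 90 kb tiles of the genome (log axis) by the RPM ratio of stimulated Th17 over stimulated Th1 (left) and over stimulated Th2 (right), for the 27528 tiles of the first comparison; the red line marks the Ccr6 locus at 3.98 and at 4.33. Nearly all tiles lie well below the line.

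The regions elsewhere whose pattern was most like the leading region of the locus were found by Pearson's r of log2(RPM + 1) over the 6 BRG1 libraries, among 10908 regions outside the locus with at least 20 stimulated Th17 reads. The points share libraries and depth, and r over 6 libraries is mostly set by stimulated Th17, so r is a description. The closest, r = 0.97, was chromosome 16, 31029001 to 31029400, with 35 reads in stimulated Th17, 7 in stimulated Th1 and 2 in stimulated Th2, with 2 in resting Th1, 1 in resting Th2, 3 in naive and 0 in input. The next, also r = 0.97, was chromosome 1, 39082001 to 39082200, with 25 reads in stimulated Th17, 2 in stimulated Th1 and 0 in stimulated Th2, with 1 in resting Th1 and 0 in resting Th2, naive and input. The other 3 of the 5 closest, on chromosomes 8, 7 and 5, had 20 to 22 reads in stimulated Th17 and 0 to 2 in every other library. None had as many stimulated Th17 reads as the 58 of the leading Ccr6 region. That region is 600 bp long and was picked as the locus region with the most stimulated Th17 reads. The regions compared with it are shorter, so these counts do not compare density.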

How the data were processed

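Each of the 7 libraries came as a list of aligned reads deposited by the authors, giving chromosome, start, end and strand for reads of 34 bases. The lists hold no score, count or signal that was used here. Per the submitters' processing notes the reads were placed on mm9. The aligner is not given in the sources used here. Each list held 2114977 to 8786251 reads, of which 7.23% to 41.4% repeated a start and strand.

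From these, repeats of a start and strand were dropped, as was chromosome Y, and read starts were shifted by 75 bp in the 3′ direction. This left 1340208 to 7892944 distinct reads. They were counted in windows of 200 bp and bins of 1 kb. Windows were called at a Poisson tail of 1e-05 with an expected count set by the genome mean or by the scaled input within 1, 5 or 10 kb, whichever was highest, and joined over gaps of up to 1 window, with every BRG1 library thinned to 1340208 reads. Ratios of RPM have conditional exact (Clopper-Pearson) 95% intervals. The steps were tested on simulated data. Python 3.11.15, NumPy 2.4.6 and SciPy 1.17.1 were used.

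The rule for named positions took the 5 regions called at equal depth, at most 10 bins with the most stimulated Th17 reads, of which 4 are named, and the 5 regions most alike. Other regions, bins, blocks and tiles were named after their values were seen. The locus, the motifs and the rules were chosen with earlier results of these data known.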

Additional observations from a re-analysis of the deposited data

How the results depend on the processing

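Of 89 alternative values, 62 were close to the value reported (inside its interval, or within 1.5 times for a count). None of the locus ratios reversed, and a count could not be labelled as reversed. The close values include counts of called windows with no call under either setting, in naive, resting Th1, resting Th2, stimulated Th1 and stimulated Th2. In stimulated Th17 the only close count of called windows was 5, against 7, with windows moved by 100 bp. Divided by the union region median, the locus ratio of stimulated Th17 was 6.87 over stimulated Th1, 6.90 over stimulated Th2 and 1.21 over input. The median used for input was 4.47, over regions that were called against the input. Divided by the ratio in 10 kb bins without regions, the locus ratio was 3.68 over stimulated Th1, 4.10 over stimulated Th2 and 7.03 over input. Without the regions called in stimulated Th17, chosen after seeing the data, it was 3.13, 2.76 and 3.03 over stimulated Th1, stimulated Th2 and input. The count of called windows depended most on the settings. In stimulated Th17 it was 62 with all distinct reads, 16 with all reads kept, 2 at a tail of 1e-07, 22 at 1e-03, 13 against the genome mean only and 4 with no shift. In stimulated Th1 it was 1 with all distinct reads, 1 with all reads kept, 2 at 1e-03 and 1 against the genome mean only. In stimulated Th2 it was 2 with all distinct reads, 2 at 1e-03 and 1 against the genome mean only. In resting Th2 it was 1 at 1e-03. The regions called higher in stimulated Th17 were 4 of 5 tested over stimulated Th1 and 3 of 5 over stimulated Th2. They were 10 of 12 in both comparisons with all reads kept and 1 of 1 in both at equal depth. With at least 20 reads in the pair they were 2 of 3 over stimulated Th1, and relative to the median ratio 5 of 5 over stimulated Th2. At equal depth there are fewer reads to count. The cause of these changes was not tested. No paired analysis was possible because each group has 1 library. At this depth 1 read is worth 0.127 RPM in stimulated Th17 and 0.746 RPM in resting Th2, so differences of a few reads between the unstimulated libraries were not detectable.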

Other observations

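Over stimulated Th1, the tiles above the locus lay on chromosome 1, 20700001 to 20790000, with 786 reads in stimulated Th17 and 83 in stimulated Th1, on chromosome 2, 126090001 to 126180000, with 714 and 85, and on chromosome 8, 117540001 to 117630000, with 1097 and 135. Over stimulated Th2 they lay on chromosome 5, 75960001 to 76050000 and the tile that follows it, with 663 and 974 reads in stimulated Th17 and 75 and 120 in stimulated Th2, and on chromosome 7, 119430001 to 119520000, with 921 and 105. Over naive, 41 tiles of 27613 had a higher ratio than the locus. These tiles were named after their values were seen.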
